A study of Mus musculus with 9 samples.

Results

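The expression of 10 genes of fibronectin and of profibrotic matricellular and related matrix proteins was examined in mouse kidney: Fn1, Ccn1, Ccn2, Tnc, Postn, Thbs1, Acta2, Lox, Ogn and Dcn. They were taken by symbol from a table of 26139 genes, and all 10 were found in it. Bulk RNA sequencing had been carried out on kidneys of 3 groups, with 3 libraries each. The GQYS mice, of genotype Itgam-IRES-hCD89, were gavaged each day over 5 months with a herbal medicine, Gui-qi-yi-shen granules. The IgAN group had the same genotype and received saline by gavage. Saline was also given to the WT mice, of strain C57/BL6. In the knock-in genotype, human CD89, an Fc receptor for IgA, is linked through an internal ribosome entry site to Itgam, which encodes CD11b, an integrin of myeloid cells, and the series uses these mice as a model of IgA nephropathy. Both GQYS and IgAN mice carry the knock-in, and no group of wild-type mice on the granules was analysed here, so effects of the granules that depend on the genotype and those that do not cannot be told apart. Whether each library is a different mouse is not stated, and the p-values therefore reflect variation among libraries that may be technical.

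Fibronectin is a scaffold onto which collagens and other matrix proteins are laid down, and lysyl oxidase crosslinks collagen and elastin. Matricellular proteins (the CCN proteins, tenascin-C, periostin and thrombospondin 1) are secreted into the matrix but act mainly on cell adhesion and growth factor signalling rather than as structural fibres. Thrombospondin 1 can activate latent TGF-beta, which in turn induces many matrix genes. Alpha smooth muscle actin marks vascular smooth muscle and, in scarring kidney, myofibroblasts. Decorin and osteoglycin (mimecan) are small leucine-rich proteoglycans that bind collagen fibrils, and decorin can also bind TGF-beta.

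Each library held 30564947 to 38161564 reads assigned to genes, recovered from the steps of the FPKM values (fragments per kilobase of gene, scaled to library size). The summed level of 8 proximal tubule markers was 41941 to 52556 FPKM in GQYS, 42719 to 59308 in IgAN and 39266 to 68298 in WT, high in every library, as in kidney. Itgam was at 0.0283 to 0.143 FPKM in GQYS, at 0.172 to 0.433 in IgAN and at 0.340 to 0.716 in WT, low in all groups and not higher in the knock-in libraries. Some libraries stood apart in single genes. IgAN replicate 1 had the tubular injury marker Havcr1 at 43.8 FPKM, against at most 1.79 in the other 8 libraries. WT replicate 1 had the immediate-early gene Egr1 at 71.0 FPKM, against at most 8.49 in the others. WT replicate 3 had the urothelial marker Upk1a at 4.70 FPKM, against at most 1.63 in the others. Cfd was at 11.4 FPKM in that library, against at most 0.158 elsewhere. In bulk tissue, fewer cells of a type and less RNA per cell cannot be told apart.

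In IgAN against WT kidneys, Fn1, Tnc, Thbs1 and Acta2 were higher in all 3 IgAN libraries than in any WT library, and Ogn was lower in all 3. Mean levels in IgAN were 1.52 to 3.72 times those in WT for the 4 genes and 0.506 times for Ogn. None of these differences passed the test across all genes: 0 of the 8 members that passed the filter had a limma adjusted p of at most 0.05, against 0.353% of the 11617 genes tested. The count was 0 with voom on recovered reads as well, and 5 of the 8 had an unadjusted p below 0.05, against 10.3% of all tested genes. FPKM ranges did not overlap for 5 of the 10 members, against 11.7% of the 23797 genes with a value above 0 in any library; among the 8 filtered members it was also 5, against 14.0% of tested genes (14.1% after upper-quartile scaling and 13.7% with mitochondrial genes out of the total, with the same 5 members). Without IgAN replicate 1, WT replicate 1 or both, 6, 6 and 7 of the 10 were apart, against 18.6%, 28.8% and 37.4% of genes. The median log2 change of the 8 filtered members was 0.32, and that of all tested genes was 0.02; without Tnc, which the filter kept through its IgAN libraries, the members' median was 0.07.

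In GQYS against IgAN kidneys, the same 4 genes were lower in all 3 GQYS libraries than in any IgAN library, together with Ccn1, Dcn and Postn, and Ogn was higher in all 3. Mean levels in GQYS were 0.298 to 0.830 times those in IgAN for these 7 genes and 1.86 times for Ogn. Again 0 of 8 members passed limma at an adjusted p of at most 0.05, against 0.198% of all tested genes, and voom on recovered reads also gave 0. At an unadjusted p below 0.05 there were 5 of 8, against 10.4% of all tested genes. Ranges were apart for 8 of the 10 members, against 15.1% of genes with a value above 0, and for 8 against 23.1% without IgAN replicate 1. Scaling mattered for that count. Among the 8 filtered members it was 7 on the deposited scale, against 19.1% of tested genes. It was 4 after upper-quartile scaling, when Fn1, Ccn1 and Dcn overlapped, against 20.3%, and 5 with mitochondrial genes out of the total, when Fn1 and Dcn overlapped, against 19.5%. The median log2 change of the 8 filtered members was -0.40 (-0.37 without Tnc), and that of all tested genes was 0.01. This comparison shares the IgAN libraries with the one above, so opposite signs in the 2 are not independent of each other.

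In GQYS against WT kidneys, Ccn1 alone of the 10 genes had ranges that did not overlap, where 8.43% of genes with a value above 0 did so (24.0% without WT replicate 1). Among tested genes the share was 9.74%, and it was 9.43% after upper-quartile scaling and 9.40% with mitochondrial genes out of the total; Ccn1 was apart on each scale. No member passed limma at an adjusted p of at most 0.05, as for all tested genes (0%), and voom on recovered reads also gave 0. At an unadjusted p below 0.05 there was 1 of 8, again Ccn1, against 4.43% of all tested genes. The median log2 change of the 8 members was -0.03 and that of all tested genes 0.03. A 2-sided exact permutation test of 3 against 3 libraries cannot give a p below 0.1, and it gave 0.1 for each member whose ranges were apart in a comparison.

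**Figure D1:**
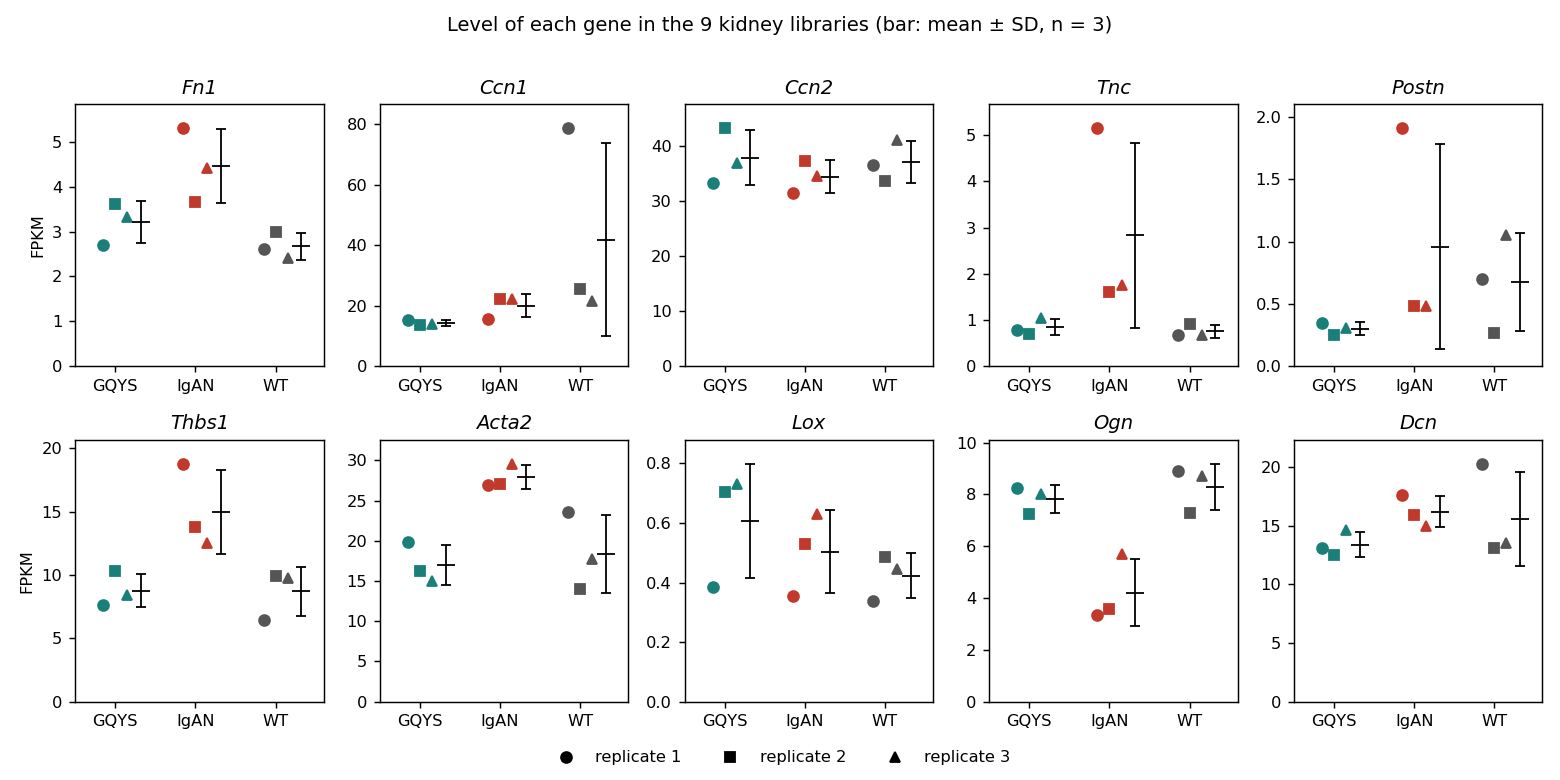
FPKM (vertical axes, from 0, a scale for each gene) of the 10 genes in the GQYS, IgAN and WT libraries; symbols mark the replicate number and bars the mean ± SD of 3 libraries. IgAN points lie above both other groups for Fn1, Tnc, Thbs1 and Acta2 and below both for Ogn, while WT replicate 1 sets Ccn1 apart at 78.6 FPKM.

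Among themselves the genes covered a wide range of levels. By mean FPKM in WT the order was Ccn1 (41.8), Ccn2 (37.2), Acta2 (18.4), Dcn (15.6), Thbs1 (8.71), Ogn (8.30), Fn1 (2.67), Tnc (0.761), Postn (0.675) and Lox (0.423). The WT ranges of Ccn1 with both Ccn2 and Acta2, of Acta2 and Dcn, of Thbs1 and Ogn, and of Postn with both Tnc and Lox overlapped, so the order within these is not settled. Ccn2 was the most abundant of the 10 by mean in GQYS and in IgAN. Postn and Lox were below the filter of 1 FPKM in at least 3 libraries and rested on 32 to 199 and 52 to 127 reads per library. Tnc passed it in 4 libraries only, the 3 IgAN libraries and GQYS replicate 3, so the filter kept Tnc through the group in which it was high.

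Promoter windows (250 bases before to 50 after a RefSeq transcription start, build GRCm38.p6) were at hand for 5 of the 10 members, Ccn1, Tnc, Postn, Acta2 and Ogn, in 7 windows. The submitters' processing notes name another build, GRCm39, so these coordinates serve for the sequences alone. The 4 windows below are shown because Acta2 and Tnc lay higher and Ogn lower in IgAN than in WT, and because Ccn1 is a known target of the factors YAP and TEAD. Each is written 5′ to 3′ on the gene's strand. Capitals mark the TEAD motif GGAATG on either strand (CATTCC on the other) and the TATA box letters TATAAA on either strand. The letters were marked at any distance from the start, so a marked TATAAA need not be a TATA box. They are Acta2 at chr19:34255324-34255623 (minus strand), Tnc at chr4:64046966-64047265 (minus strand), Ogn at chr13:49607765-49608064 (plus strand) and Ccn1 at chr3:145649936-145650235 (minus strand).
Acta2: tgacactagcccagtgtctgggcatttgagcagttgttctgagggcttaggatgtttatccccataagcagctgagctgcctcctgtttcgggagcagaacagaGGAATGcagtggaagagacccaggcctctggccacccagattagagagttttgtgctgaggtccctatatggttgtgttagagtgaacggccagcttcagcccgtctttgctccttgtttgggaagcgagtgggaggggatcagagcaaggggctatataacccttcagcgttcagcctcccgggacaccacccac
Tnc: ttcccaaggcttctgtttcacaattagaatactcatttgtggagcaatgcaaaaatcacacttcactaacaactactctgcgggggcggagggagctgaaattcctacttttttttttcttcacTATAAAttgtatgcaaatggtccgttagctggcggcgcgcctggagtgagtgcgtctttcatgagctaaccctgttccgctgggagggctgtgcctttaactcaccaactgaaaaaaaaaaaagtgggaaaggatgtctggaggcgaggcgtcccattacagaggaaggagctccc
Ogn: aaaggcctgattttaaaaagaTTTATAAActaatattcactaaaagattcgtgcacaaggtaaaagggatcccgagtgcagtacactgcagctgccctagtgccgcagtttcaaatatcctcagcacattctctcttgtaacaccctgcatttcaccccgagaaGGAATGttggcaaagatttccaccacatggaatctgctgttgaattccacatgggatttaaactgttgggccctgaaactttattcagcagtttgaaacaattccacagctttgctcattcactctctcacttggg
Ccn1: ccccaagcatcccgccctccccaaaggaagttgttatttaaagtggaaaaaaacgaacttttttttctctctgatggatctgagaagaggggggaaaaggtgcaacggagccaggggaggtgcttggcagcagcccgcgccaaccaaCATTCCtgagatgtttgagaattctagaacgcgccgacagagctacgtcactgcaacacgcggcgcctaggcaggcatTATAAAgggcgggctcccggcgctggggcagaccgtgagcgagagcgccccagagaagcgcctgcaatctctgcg

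Counted from the start, the TEAD motif lay at position -146 in Acta2, at -86 in Ogn and, on the opposite strand, at -103 in Ccn1. It occurred in 3 of the 7 member windows and in 14.7% of all 32851 windows. TATAAA lay at -25 in Ccn1 and at -126 in Tnc, and in Ogn a pair of overlapping copies, 1 on each strand, lay at -227 and -229. A copy also lay at -26 in the second Postn window. It occurred in 5 of 7 member windows, of which the 2 of Tnc overlap and share 1 site, and in 13.6% of all windows. The AP-1 motif TGANTCA and the SMAD palindrome GTCTAGAC, searched on both strands, matched 0 of the 7 windows and 7.81% and 0.213% of all windows. The Acta2 and Ogn windows both held the TEAD letters, and whether TEAD factors act on either gene was not tested.

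Fn1, which encodes fibronectin, was at 2.71, 3.61 and 3.33 FPKM in the GQYS libraries, at 5.30, 3.65 and 4.42 in the IgAN libraries and at 2.61, 3.0 and 2.41 in the WT libraries. IgAN replicate 1 was the highest, and IgAN replicate 2 was barely above GQYS replicate 2. The log2 change on the FPKM + 1 scale, which understates the change of low genes, was 0.56 for IgAN against WT (95% interval 0.25 to 0.88, limma adjusted p = 0.154) and -0.37 for GQYS against IgAN (-0.68 to -0.05, adjusted p = 0.395). For GQYS against WT it was 0.20 (-0.12 to 0.51, adjusted p = 0.999). Lox, the lysyl oxidase, was at 0.386, 0.703 and 0.732 FPKM in GQYS, at 0.355, 0.529 and 0.630 in IgAN and at 0.338, 0.486 and 0.445 in WT. The 3 groups overlapped, and replicate 1 was the lowest library in each. Fits without a filter gave log2 changes of 0.08 for IgAN against WT, 0.09 for GQYS against IgAN and 0.17 for GQYS against WT, with limma adjusted p of 0.885, 0.851 and 1.0.

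Tnc, encoding tenascin-C, a glycoprotein of wound and developing matrix, was at 0.793, 0.705 and 1.04 FPKM in GQYS, at 5.15, 1.60 and 1.75 in IgAN and at 0.685, 0.925 and 0.674 in WT. IgAN replicate 1 was far above the other IgAN libraries, yet these also lay above every GQYS and WT library. The log2 change was 1.01 for IgAN against WT (95% interval 0.39 to 1.63, limma adjusted p = 0.196) and -0.94 for GQYS against IgAN (-1.56 to -0.32, adjusted p = 0.251). Without IgAN replicate 1 they were 0.61 (adjusted p = 0.158) and -0.54 (adjusted p = 0.292), and the IgAN mean was 1.68 FPKM in place of 2.83. Postn, encoding periostin, which binds collagen and integrins, was at 0.350, 0.249 and 0.309 FPKM in GQYS, at 1.91, 0.487 and 0.483 in IgAN and at 0.701, 0.269 and 1.05 in WT. IgAN and WT overlapped, and the highest WT library was replicate 3. All 3 GQYS libraries were below the IgAN libraries but overlapped WT. The log2 change for IgAN against WT was 0.18 (-0.47 to 0.82), and it was -0.15 without IgAN replicate 1. For GQYS against IgAN it was -0.51 (-1.16 to 0.13, limma adjusted p = 0.644 without a filter), and -0.19 without that library.

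Thbs1, encoding thrombospondin 1, was at 7.67, 10.3 and 8.40 FPKM in GQYS, at 18.8, 13.8 and 12.5 in IgAN and at 6.44, 9.89 and 9.78 in WT. The IgAN libraries lay above all others, while GQYS and WT overlapped. The log2 change was 0.73 for IgAN against WT (95% interval 0.30 to 1.15, limma adjusted p = 0.178), -0.70 for GQYS against IgAN (-1.13 to -0.27, adjusted p = 0.207) and 0.02 for GQYS against WT (-0.40 to 0.45, adjusted p = 0.999). With the first replicates of WT and IgAN both left out, the IgAN against WT value was 0.38 (adjusted p = 0.266), and that for GQYS against IgAN was -0.54 (adjusted p = 0.114).

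The CCN genes differed from Thbs1 and Tnc in their pattern. Ccn1 encodes an adhesive CCN protein and is itself an immediate-early gene. Its level was 15.4, 13.7 and 13.9 FPKM in GQYS, 15.7, 22.2 and 22.2 in IgAN and 78.6, 25.4 and 21.5 in WT. WT replicate 1, the library with 71.0 FPKM of Egr1, stood far above the rest; its summed level of 24 immediate-early genes was 322 FPKM, against 124 and 130 in the other WT libraries. That sum was 122 to 145 FPKM in GQYS and 173 to 259 in IgAN. Its highest IgAN value was in replicate 1, where Ccn1 was the lowest of the group. All GQYS libraries were below all IgAN and WT libraries, though GQYS replicate 1 and IgAN replicate 1 nearly met. The log2 change for GQYS against WT was -1.24 (95% interval -2.11 to -0.38, limma adjusted p = 0.905), and without WT replicate 1 it was -0.67 (adjusted p = 0.504). For IgAN against WT it was -0.80 (-1.67 to 0.07, adjusted p = 0.535), and -0.23 without WT replicate 1. For GQYS against IgAN it was -0.44 (-1.31 to 0.43, adjusted p = 0.817), and with the first replicates of WT and IgAN both left out it was -0.60 and passed the threshold (adjusted p = 0.0471).

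Ccn2, encoding connective tissue growth factor, a widely used marker of TGF-beta and YAP activity, was at 33.4, 43.3 and 36.9 FPKM in GQYS, at 31.6, 37.4 and 34.6 in IgAN and at 36.7, 33.7 and 41.2 in WT. The 3 groups overlapped throughout, and the highest library was 1.37 times the lowest, the narrowest spread of the 10 genes. Its log2 changes were -0.10 for IgAN against WT (95% interval -0.38 to 0.18), 0.13 for GQYS against IgAN (-0.15 to 0.41) and 0.02 for GQYS against WT (-0.26 to 0.30), with limma adjusted p of 0.874, 0.850 and 0.999. No bound of these intervals was farther from 0 than 0.41.

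**Figure D2:**
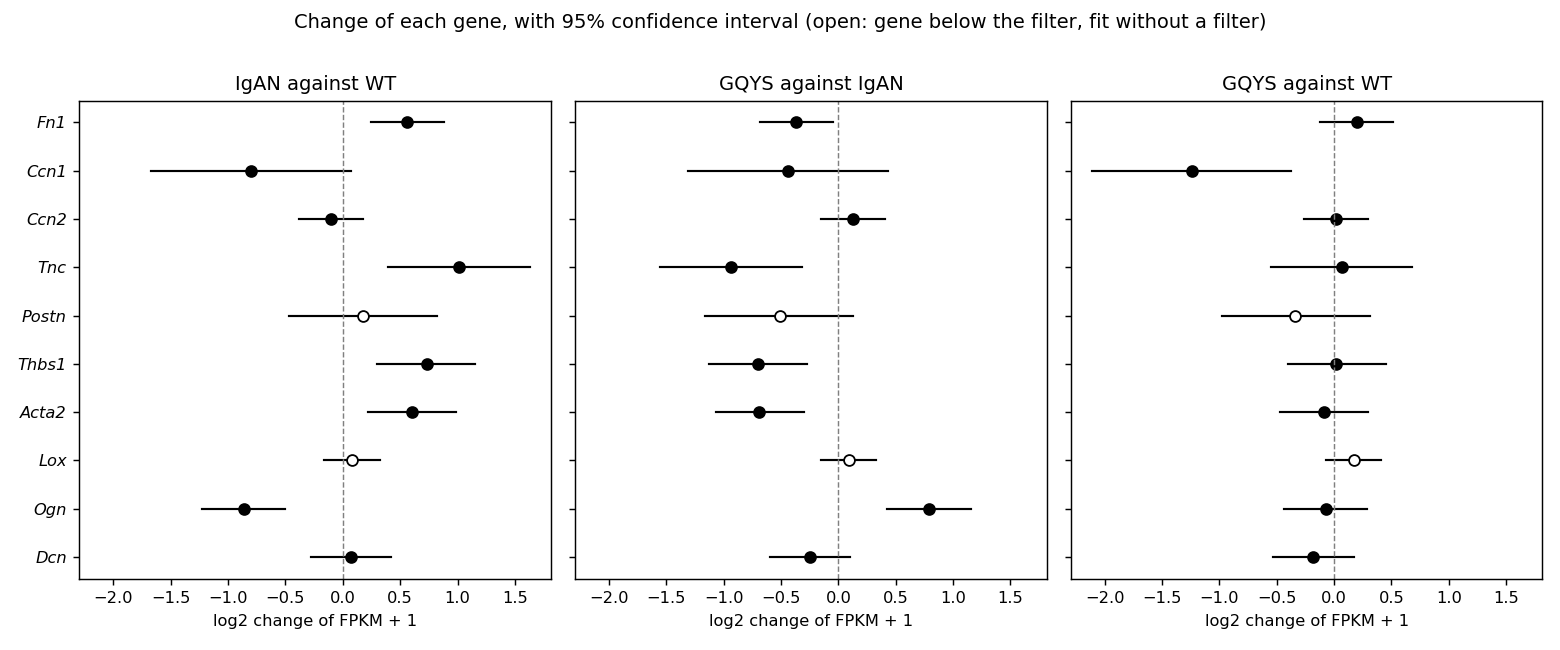
Log2 change of FPKM + 1 (horizontal axes) with its 95% confidence interval from limma for the 10 genes (rows) in the 3 comparisons; open points are Postn and Lox, fitted without a filter. Intervals lie above 0 for Fn1, Tnc, Thbs1 and Acta2 and below 0 for Ogn in IgAN against WT, and in GQYS against WT that of Ccn1 alone leaves out 0; none passed the adjustment over 11617 genes.

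Acta2, encoding alpha smooth muscle actin, was at 19.8, 16.3 and 15.0 FPKM in GQYS, at 27.0, 27.1 and 29.6 in IgAN and at 23.6, 14.0 and 17.7 in WT. The IgAN libraries were close together and above all others, and the highest of the others was WT replicate 1. The log2 change was 0.60 for IgAN against WT (95% interval 0.22 to 0.99, limma adjusted p = 0.220) and -0.69 for GQYS against IgAN (-1.07 to -0.30, adjusted p = 0.173). Without WT replicate 1 the first of these was 0.79 and passed the threshold (adjusted p = 0.0439), and without WT replicate 2 it was 0.43 (adjusted p = 0.483). For GQYS against WT the value was -0.09 (-0.47 to 0.30, adjusted p = 0.999). Of 13 other contractile genes, 11 were tested and 0 passed limma or voom in any comparison, with 1 above WT in IgAN and 2 below IgAN in GQYS at an unadjusted p below 0.05. Their summed level was 134 to 161 FPKM in GQYS, 158 to 179 in IgAN and 128 to 176 in WT, and their median log2 change was 0.11 for IgAN against WT. A limma unadjusted p below 0.05 was reached by 10.3% of all tested genes in IgAN against WT and 10.4% in GQYS against IgAN. Tpm1, a tropomyosin, averaged 15.1 ± 0.270 FPKM in GQYS, 22.8 ± 4.73 in IgAN and 15.8 ± 2.23 in WT (SD, n = 3 each), and Tagln, transgelin, 23.7 ± 2.29 in GQYS, 41.5 ± 6.55 in IgAN and 28.2 ± 15.2 in WT. Myh11, the smooth muscle myosin heavy chain, chosen after its values were seen, averaged 5.07 FPKM in GQYS, 6.48 in IgAN and 6.01 in WT.

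Ogn, encoding osteoglycin, had the smallest p of the 10 genes in both comparisons with IgAN. It was at 8.25, 7.23 and 8.01 FPKM in GQYS, at 3.35, 3.57 and 5.69 in IgAN and at 8.91, 7.29 and 8.72 in WT. All 3 IgAN libraries were below all 6 others, with IgAN replicate 3 nearest to them, and GQYS and WT overlapped. The log2 change was -0.86 for IgAN against WT (95% interval -1.23 to -0.50, limma adjusted p = 0.0746), 0.79 for GQYS against IgAN (0.42 to 1.16, adjusted p = 0.124) and -0.07 for GQYS against WT (-0.44 to 0.29, adjusted p = 0.999). Without IgAN replicate 3 the first 2 were -1.06 (adjusted p = 0.0221) and 0.98 (adjusted p = 0.0333), both past the threshold. Dcn, encoding decorin, of the same proteoglycan family, was at 13.1, 12.5 and 14.6 FPKM in GQYS, at 17.6, 15.9 and 15.0 in IgAN and at 20.3, 13.1 and 13.5 in WT. WT overlapped both other groups, with replicate 1 the highest of the 9 libraries, and GQYS lay just below IgAN. Its log2 changes were 0.07 for IgAN against WT (-0.28 to 0.42) and -0.25 for GQYS against IgAN (-0.60 to 0.10), with limma adjusted p of 0.940 and 0.668. Of the other small leucine-rich proteoglycans 5 of 14 genes in the table were tested and 0 passed limma or voom in any comparison, with 1 at an unadjusted p below 0.05. That was biglycan (Bgn, in IgAN against WT), which averaged 75.7 ± 7.66 FPKM in GQYS, 82.3 ± 9.28 in IgAN and 64.3 ± 8.15 in WT. A limma unadjusted p below 0.05 was reached by 10.3% of all tested genes in IgAN against WT.

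**Figure D3:**
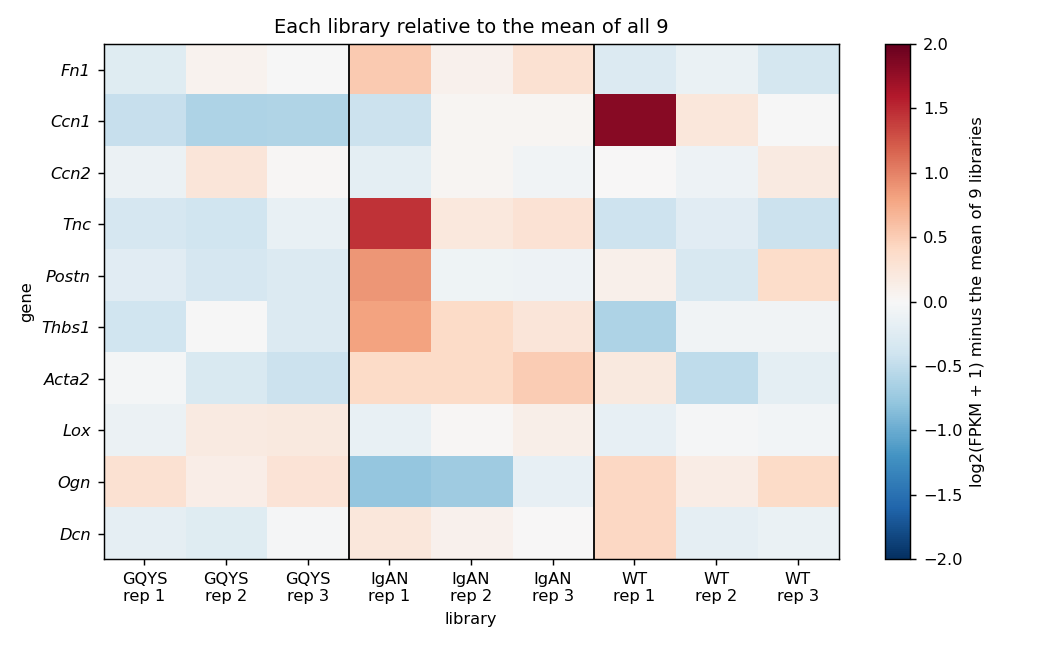
Log2(FPKM + 1) of each gene (rows) in each library (columns, grouped as GQYS, IgAN and WT) minus its mean over the 9 libraries; red is above and blue below that mean. IgAN replicate 1 is the reddest library for Tnc, Postn, Thbs1 and Fn1, WT replicate 1 for Ccn1, and the IgAN columns are blue for Ogn.

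Lists of related genes gave few calls. Of all tested genes, 10.3% had a limma unadjusted p below 0.05 in IgAN against WT. The shares were 10.4% in GQYS against IgAN and 4.43% in GQYS against WT. Of 12 tested other matricellular genes, 0 passed limma or voom in any comparison. In IgAN against WT 4 had an unadjusted p below 0.05 upward and 1 downward, and in GQYS against IgAN 1 upward and 2 downward. The median log2 change of the 12 was 0.41 for IgAN against WT and -0.24 for GQYS against IgAN. Fbln5, an elastic fibre protein, was the 1 below WT, at 22.2 ± 0.482 FPKM in GQYS, 13.0 ± 3.57 in IgAN and 19.5 ± 0.730 in WT (limma adjusted p = 0.188 for IgAN against WT). Tgfbi, a TGF-beta-induced adhesion protein, averaged 5.71 ± 0.0698 FPKM in GQYS, 10.4 ± 4.55 in IgAN and 6.03 ± 0.932 in WT. Of the other lysyl oxidases, Loxl1 and Loxl2 were tested and 0 passed limma or voom, with Loxl2 at an unadjusted p of 0.00986 in limma for IgAN against WT, adjusted p = 0.266, and of 0.0396 for GQYS against IgAN, adjusted p = 0.444. Loxl2 averaged 1.25 ± 0.137 FPKM in GQYS, 1.96 ± 0.678 in IgAN and 1.06 ± 0.146 in WT. Among 11 tested fibronectin receptors and crosslinkers 0 passed limma or voom in any comparison, and 2 above WT and 1 below it in IgAN had an unadjusted p below 0.05, as did 1 above IgAN and 1 above WT in GQYS. Itgb6, a subunit of an integrin that activates TGF-beta, was at 23.1 ± 1.33 FPKM in GQYS, 23.8 ± 2.08 in IgAN and 18.3 ± 2.88 in WT (adjusted p = 0.303 by limma for IgAN against WT).

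Of 19 tested TGF-beta ligands, receptors and feedback targets, 1 rose in IgAN against WT. It was Tgif1, a co-repressor of SMAD factors, at 3.68 ± 0.889 FPKM in GQYS, 5.01 ± 0.655 in IgAN and 2.11 ± 0.250 in WT (log2 change 0.95, limma adjusted p = 0.0343), and voom on recovered reads also called it. Leaving out a single library lifted it above the threshold in 7 of 9 cases (adjusted p up to 0.131, without IgAN replicate 3). Of the 19, 0 passed limma or voom in the other comparisons, with 2 below IgAN and 2 above WT in GQYS at an unadjusted p below 0.05. Among 17 tested YAP and TEAD targets other than the CCN genes, 0 passed in IgAN against WT, where 5 had an unadjusted p below 0.05, and 1 rose in GQYS against IgAN: Igfbp3, which binds insulin-like growth factors, at 70.0 ± 4.17 FPKM in GQYS, 35.6 ± 8.44 in IgAN and 49.0 ± 1.54 in WT (log2 change 0.98, adjusted p = 0.0481). Voom did not call it, and neither did limma in 7 of 9 fits with a single library left out (adjusted p up to 0.293, without GQYS replicate 3). Of 18 tested immediate-early genes, the transcription factors Klf6 and Maff rose in IgAN against WT (log2 changes 0.80 and 1.56, adjusted p = 0.0343 and 0.0218), and voom called both. Klf6 averaged 7.47 ± 0.449 FPKM in GQYS, 13.6 ± 2.52 in IgAN and 7.27 ± 0.164 in WT, and Maff 0.891 ± 0.198 in GQYS, 3.2 ± 1.36 in IgAN and 0.392 ± 0.251 in WT. With a single library left out, Klf6 missed the threshold in 8 of 9 fits (adjusted p up to 0.111, without WT replicate 2) and Maff in 3 (up to 0.106, without IgAN replicate 3). Maff reached 1 FPKM only in the IgAN libraries and in GQYS replicate 2, so the filter kept it through the group in which it was high. In GQYS against IgAN 0 of the 18 passed limma or voom, and 9 had an unadjusted p below 0.05, all lower in GQYS. Of all tested genes, 10.3% had such a p in IgAN against WT, 10.4% in GQYS against IgAN and 4.43% in GQYS against WT.

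Markers of the cells that make these proteins were compared across the same libraries. The summed level of 11 fibroblast markers was 49.8 to 58.3 FPKM in GQYS, 62.5 to 98.5 in IgAN and 43.7 to 56.5 in WT, so IgAN lay above both other groups, with replicate 1 the highest. Of the 7 tested, 0 passed limma or voom in any comparison, 3 were above WT in IgAN, 3 below IgAN in GQYS and 1 above WT in GQYS at an unadjusted p below 0.05, and Gsn, gelsolin, had the smallest p (log2 change 0.50 for IgAN against WT, limma adjusted p = 0.140). Gsn made up a large part of the fibroblast sum, at 20.9 to 26.2 FPKM in GQYS, 31.2 to 37.9 in IgAN and 21.9 to 24.7 in WT. Without Gsn the fibroblast sums of IgAN overlapped those of both other groups. The 9 mesangial markers summed to 93.7 to 103 FPKM in GQYS, 86.5 to 95.9 in IgAN and 73.6 to 86.6 in WT, and the 8 pericyte markers to 33.5 to 34.1 FPKM in GQYS, 30.3 to 40.8 in IgAN and 31.1 to 35.4 in WT. Of 9 and 7 tested genes, 0 passed limma or voom, and 2 of each list had an unadjusted p below 0.05 in IgAN against WT. In GQYS against IgAN 3 mesangial genes and 1 pericyte gene did, and in GQYS against WT 1 mesangial gene. Of all tested genes, 10.3% had such a p in IgAN against WT, 10.4% in GQYS against IgAN and 4.43% in GQYS against WT. Plvap was that 1 mesangial gene and among the 3, and it is also in the endothelial list. It made up most of the mesangial sum, at 62.7 to 70.4 FPKM in GQYS, 45.6 to 61.0 in IgAN and 46.9 to 56.6 in WT. Without Plvap the mesangial sums of the groups overlapped. The 14 tubular injury markers summed to 427 to 592 FPKM in GQYS, 573 to 1441 in IgAN and 455 to 483 in WT, with Vcam1 the 1 gene of 10 tested that rose in IgAN against WT and fell in GQYS against IgAN (adjusted p = 0.0107 and 0.0174). Voom made both calls. Without IgAN replicate 3 the call against WT was lost (adjusted p = 0.0608), and that against IgAN was lost in 6 of 9 fits (up to 0.113, without GQYS replicate 1). At a limma unadjusted p below 0.05, 7 of the 10 injury genes were above WT in IgAN and 7 below IgAN in GQYS. The shares of all tested genes were 10.3% and 10.4%. The highest injury sum, 1441 FPKM, was in IgAN replicate 1. The 9 neutrophil markers summed to 2.54 to 3.77 FPKM in GQYS, 27.5 to 35.1 in IgAN and 1.39 to 3.84 in WT, and the 3 tested, S100a8, S100a9 and Retnlg, rose in IgAN against WT and fell in GQYS against IgAN. For S100a8 the fall was not called by voom or in 5 of 9 fits with a library left out (limma adjusted p up to 0.0841, without GQYS replicate 3). Retnlg was at 2.26 to 2.78 FPKM in IgAN and at most 0.160 in any other library. The filter therefore kept Retnlg through the group in which it was high. No gene of these 5 lists was at 0 in all libraries. The part of fibroblast number, injury or leukocytes in the levels of the 10 genes was not tested.

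Endothelial markers summed to 234 to 247 FPKM in GQYS, 175 to 212 in IgAN and 187 to 209 in WT, and podocyte markers to 118 to 137 in GQYS, 87.2 to 114 in IgAN and 107 to 115 in WT, so GQYS lay above both other groups for each. The podocyte sum includes Tcf21, at 15.9 to 20.9 FPKM in GQYS, 6.23 to 9.44 in IgAN and 18.2 to 24.7 in WT. Without Tcf21 the podocyte sums of GQYS and IgAN overlapped. Macrophage markers summed to 75.3 to 96.2 FPKM in GQYS, 111 to 172 in IgAN and 61.9 to 147 in WT. Fat markers summed to 76.3 to 105 FPKM in GQYS, 64.0 to 81.6 in IgAN and 78.0 to 133 in WT, and urothelial markers to 2.94 to 5.22 in GQYS, 3.71 to 13.6 in IgAN and 2.02 to 21.3 in WT. Of these 5 lists, Tcf21, a transcription factor among the podocyte markers, alone passed limma: it fell in IgAN against WT and rose in GQYS against IgAN (adjusted p = 0.0115 and 0.0304). Voom made the call against WT but not that against IgAN. Without WT replicate 2 the call against WT was lost (adjusted p = 0.0547), and that against IgAN was lost in 6 of 9 fits (up to 0.200, without GQYS replicate 3).

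The genes whose profile over the 9 libraries was most like that of a member were found by the root-mean-square difference between standardised log2(FPKM + 1) values, where 0 means the same shape. For Thbs1 they were Stat3, a transcription factor of cytokine signalling (0.131), and Il4ra, an interleukin receptor subunit (0.195). Stat3 averaged 12.5 ± 1.48 FPKM in GQYS, 21.1 ± 5.06 in IgAN and 13.3 ± 2.61 in WT. For Tnc they were Sphk1, a sphingosine kinase (0.146), and Trib1, a pseudokinase (0.174). For Ogn they were L3hypdh (0.156) and Tcf21 (0.286), and Tcf21 was at 18.4 ± 2.52 FPKM in GQYS, 7.78 ± 1.61 in IgAN and 21.1 ± 3.33 in WT. For Fn1 they were Asns, asparagine synthetase (0.230), and Tax1bp3 (0.270), and for Acta2 Fgfr1op2 (0.247) and Syvn1, a ubiquitin ligase of the endoplasmic reticulum (0.291). Dcn was nearest to Gem (0.224) and Ndufa8 (0.272). Ccn1 and Ccn2 had no close match, with nearest values of 0.389 (Fancd2os) and 0.394 (Inca1) for Ccn1 and 0.343 (Cyp2u1) and 0.405 (Fam53c) for Ccn2. These are the smallest differences over 9 libraries that share their groups, given as a description. The search took the 11617 tested genes but left out the members and genes with predicted or clone names.

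**Figure D4:**
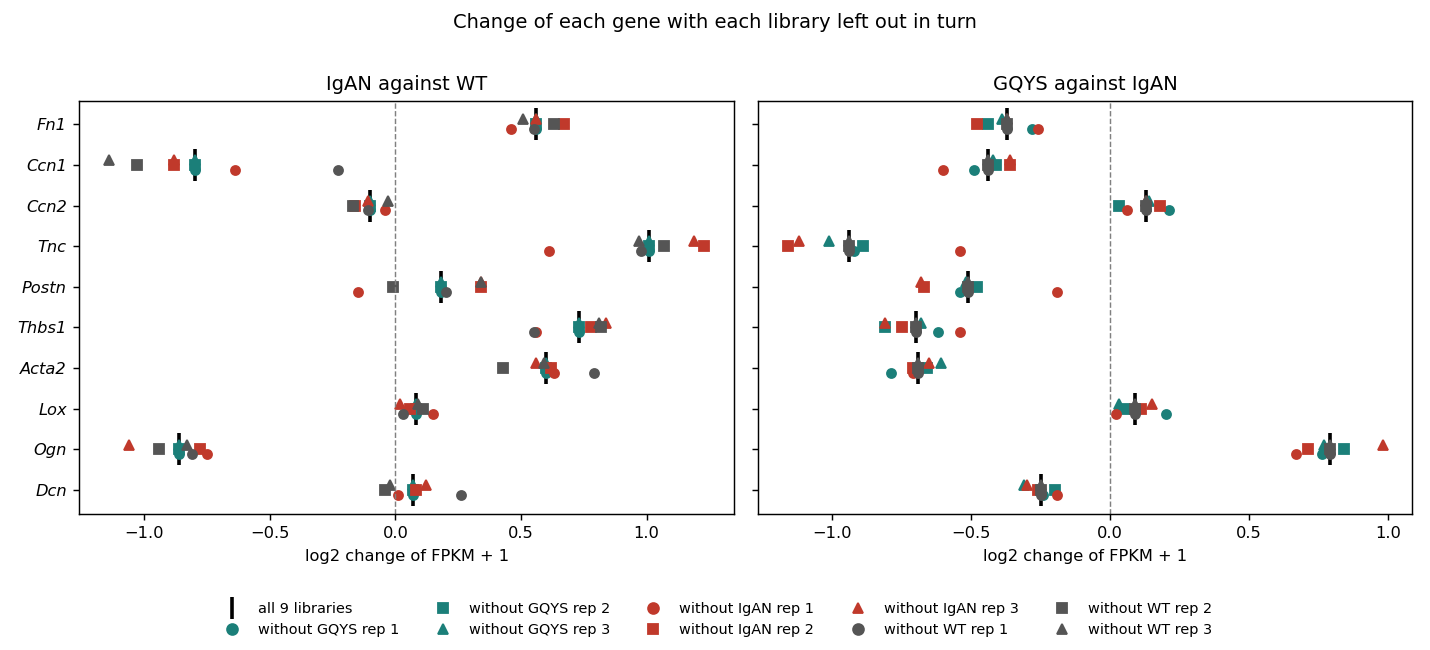
Log2 change of FPKM + 1 (horizontal axes) of each gene (rows) in IgAN against WT and in GQYS against IgAN with all 9 libraries (black bars) and with each library left out in turn (colour for the group, symbol for the replicate). Without IgAN replicate 1 Tnc moves to 0.61 in IgAN against WT and Postn to -0.15, and without WT replicate 1 Ccn1 moves to -0.23, while Fn1, Thbs1, Acta2 and Ogn keep their sign in both panels.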

How the data were processed

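FPKM values of 26139 genes in 9 libraries, in 1 table, were deposited by the authors. Per the labels' protocols, TRIzol was used for RNA and a VAHTS Universal V6 kit for the libraries. Per the submitters' processing notes, GRCm39, R 3.2.0, HISAT2, fastp, DESeq2 and HTSeq were used, without roles. Neither annotation nor strand setting is given in the sources used here, and reads of overlapping antisense genes cannot be separated. Library names tied columns to samples. Whole reads per gene were recovered from the steps of the FPKM values within 0.03 reads.

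The test was limma 3.58.1 in R 4.3.3 on log2(FPKM + 1) over all 9 libraries (1 mean per group, empirical Bayes with trend), for 11617 genes that reached 1 FPKM in 3 or more libraries, with Benjamini-Hochberg adjustment and a threshold of 0.05. Members below the filter were fitted without it, with 23797 genes. The model and the recovery were tested on simulated data. Members and the 19 lists were chosen with earlier results of these data known. From each list, genes past the threshold or up to 3 with the smallest p could be named. For each filtered member, so could the 2 nearest profiles without predicted genes. Havcr1, Egr1, Upk1a, Cfd and Myh11 were picked after values were seen. Promoter sequences came from RefSeq (GRCm38.p6). Figures were drawn with matplotlib 3.10.9 in Python 3.11.15.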

Additional observations from a re-analysis of the deposited data

How the results depend on the processing

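Under 22 alternatives (pseudocount, filter, scaling, samples, weights, prior, voom and libraries left out), 629 of 660 member values kept their sign and side of the threshold, 11 passed it and 20 changed sign; the causes were not tested. The replicate numbers were not taken as pairing, since deviations of same-numbered libraries correlated at -0.364 to 0.581 and 4 of 9 libraries correlated best with their own number; with the replicate block 1 member passed in IgAN against WT, Ogn (adjusted p = 0.0426 by limma). With that block 68 of the 11617 tested genes passed in IgAN against WT. With library quality weights 3 members passed in IgAN against WT (Fn1, Acta2, Ogn) and 3 in GQYS against IgAN (Thbs1, Acta2, Ogn). Of all tested genes 655 and 404 passed with these weights, against 41 and 23 in the main fit. With the first replicates of WT and IgAN both left out 1 member passed in GQYS against IgAN, Ccn1, where 19 of all tested genes passed as higher and 44 as lower. Leaving out each library gave 0 to 1 members past the threshold in both comparisons with IgAN, and 0 in GQYS against WT. The members' median change then spanned 0.20 (without WT replicate 2) to 0.40 (without WT replicate 1) for IgAN against WT, -0.42 to -0.37 for GQYS against IgAN, and -0.10 to 0.01 for GQYS against WT. With Tnc left out of the members, also chosen after the data were seen, the median was 0.07 for IgAN against WT, -0.37 for GQYS against IgAN and -0.07 for GQYS against WT.

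Sign changes were confined to values that passed no threshold. In GQYS against WT, library quality weights gave -0.19 for Thbs1, 0.13 for Acta2, 0.05 for Ogn and 0.04 for Dcn; without both first replicates Thbs1 was -0.16, Acta2 0.10 and Dcn 0.01, and quantile normalization gave -0.01 for Thbs1. In IgAN against WT, Postn was -0.12 without both first replicates. With each library left out, values spanned -0.15 to 0.34 for Postn and -0.04 to 0.26 for Dcn in IgAN against WT, and, in GQYS against WT, -0.08 to 0.11 for Ccn2, -0.16 to 0.12 for Thbs1, -0.01 to 0.13 for Tnc, -0.26 to 0.10 for Acta2 and -0.29 to 0.01 for Dcn.

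Calls over all genes numbered 41, 23 and 0 in the 3 comparisons. In IgAN against WT they were 21 with no filter, 27 without mitochondrial genes in the total, 68 with the block, 11 with only both groups in the fit, 655 with quality weights and 14 to 65 with a library left out. In GQYS against IgAN they were 15 with a pseudocount of 0.1, 13 with no filter, 43 with only both groups, 404 with quality weights, 63 without both first replicates and 6 to 54 with a library left out; the split of 4 higher and 19 lower was 1 and 15 after quantile normalization. In GQYS against WT they were 53 with quality weights and at most 1 with a library left out. Members with ranges apart, a count added after the data were seen, numbered 6 to 7 of 10 in IgAN against WT, 8 in GQYS against IgAN and 1 in GQYS against WT with the first replicates of IgAN, WT or both left out. Of the 23797 genes with a value above 0, 18.6% to 37.4%, 15.1% to 23.1% and 8.43% to 24.0% were then apart in the 3 comparisons. At these depths Postn and Lox, with at most 199 and 127 reads in a library, are the least precise.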
